A study of Mus musculus with 20 samples.

Results

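Transcript levels of macrophages that lack Trem2 were compared with those of 5 wild-type controls, using 10 of the 20 RNA-seq libraries of the series: Trem2 KO Rep1 to Rep5 against WT Rep1 to Rep5. The knockout mice carry a genotype labelled TREM2 5bp KO and the controls a genotype labelled WT. All were C57BL/6 mice aged 4 to 5 months. Marrow cells were grown for 6 days in medium holding 50 ng/ml of CSF-1, which turns them into macrophages, and the adherent cells were used. Each library stands for 1 animal, per the submitters' design text. That text also says that wild-type littermates of each mutant line were used, but no label ties a wild-type library to a line, so WT Rep6 to Rep10 served as an alternative control set. Levels are FPKQ, a fragment value per kilobase on a scale set by the authors, and 10866 of 51456 listed gene symbols reached a mean of 1 FPKQ in the 10 libraries and were tested. Differences are on the log2(FPKQ + 1) scale, which understates the change of genes near the minimum. "Called" means an adjusted p under 0.05 in limma.

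Trem2 is a surface receptor of macrophages, microglia and osteoclast precursors that binds lipids and lipoproteins and signals through the adaptor Tyrobp and the kinase Syk. Macrophages in CSF-1 culture depend on the Csf1r receptor, which shares parts of that route. They clear dead cells, store and recycle lipid and iron, and remodel matrix, and many of the genes below belong to those tasks.

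Trem2 itself was read first, as a check of the labels. Its level was 813.8, 813.1, 900.7, 802.2 and 860.4 FPKQ in WT Rep1 to Rep5 and 24.1, 23.7, 24.8, 24.1 and 23.8 FPKQ in KO Rep1 to Rep5. The groups did not overlap, and every library matched its label. The difference was -5.06 on the log2 scale (exact permutation test over the 10 libraries, two-sided, p = 0.00794, the smallest p these group sizes allow), and 2.87% of the wild-type level remained. Within 500 kb of Trem2 on chromosome 17, 23 other genes are annotated and 7 were tested. Only 2 of the 7 were called, where 49.5% of all tested genes were. Both were gene models without an assigned name, and both were higher in KO. A530064D06Rik read 0.937, 0.793, 1.23, 1.38 and 1.254 FPKQ in WT and 9.10, 5.87, 6.42, 8.98 and 6.98 FPKQ in KO, a log2 fold change of 1.99 (SE 0.12, limma adjusted p = 6.5e-08). B430306N03Rik, which lies before Trem2 (chr17:48316141-48327024 in GENCODE M21, GRCm38), rose from 11.3 ± 1.07 to 23.0 ± 2.53 FPKQ (SD, n = 5 each). The TREM family members Treml1 and Treml2 and the neighbours Foxp4, Nfya and Oard1 were not called. Treml2 read 1.74 ± 0.512 FPKQ in WT and 1.89 ± 0.493 FPKQ in KO, and was called higher against WT Rep6 to Rep10 (log2 fold change 0.51, limma adjusted p = 0.00541).

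The stretch of 250 bases before the start site is shown for Trem2 and for 4 genes described below, 2 that rose (F13a1 and Selenop) and 2 that fell (Cd72 and Dusp6), because all 5 hold the same short match to a motif of PU.1, the transcription factor that defines macrophages. Capitals mark GAGGAAG or its reverse complement. Sequences are the RefSeq reference on GRCm38.p6, read 5′ to 3′ on the gene's own strand, and not the alleles of these mice. Among the 8363 tested genes with a RefSeq promoter, 11.2% held the motif on either strand. Since that is 77.0% of the tested genes, fewer than a comparison of gene sets needs, shares were not compared between genes that rose and fell.
Trem2, chr17:48346151-48346400, plus strand: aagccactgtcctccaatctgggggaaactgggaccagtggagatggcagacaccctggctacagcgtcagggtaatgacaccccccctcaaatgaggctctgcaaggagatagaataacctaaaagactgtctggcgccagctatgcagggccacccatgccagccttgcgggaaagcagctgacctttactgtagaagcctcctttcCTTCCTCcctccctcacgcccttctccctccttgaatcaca
F13a1, chr13:37050245-37050494, minus strand: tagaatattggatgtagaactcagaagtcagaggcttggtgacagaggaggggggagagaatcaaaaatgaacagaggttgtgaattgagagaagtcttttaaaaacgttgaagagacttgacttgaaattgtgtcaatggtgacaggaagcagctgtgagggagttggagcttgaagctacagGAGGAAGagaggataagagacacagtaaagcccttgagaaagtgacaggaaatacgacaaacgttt
Selenop, chr15:3270517-3270766, plus strand: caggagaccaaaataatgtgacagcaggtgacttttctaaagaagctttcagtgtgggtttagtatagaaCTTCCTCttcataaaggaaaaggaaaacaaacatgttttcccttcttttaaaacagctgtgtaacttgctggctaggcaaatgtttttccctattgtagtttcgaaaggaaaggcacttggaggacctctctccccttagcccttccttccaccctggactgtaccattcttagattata
Cd72, chr4:43454627-43454876, minus strand: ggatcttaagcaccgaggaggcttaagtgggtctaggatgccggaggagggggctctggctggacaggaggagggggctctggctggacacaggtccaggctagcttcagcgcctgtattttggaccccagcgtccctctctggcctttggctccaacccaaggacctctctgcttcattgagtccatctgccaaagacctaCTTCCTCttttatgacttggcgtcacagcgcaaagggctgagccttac
Dusp6, chr10:99262981-99263230, plus strand: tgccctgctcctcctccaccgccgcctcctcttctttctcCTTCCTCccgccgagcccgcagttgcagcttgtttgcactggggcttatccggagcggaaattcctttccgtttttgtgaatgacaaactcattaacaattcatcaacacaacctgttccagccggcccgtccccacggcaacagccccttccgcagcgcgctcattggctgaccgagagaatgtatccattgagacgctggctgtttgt
The match lies 41 bases before the start of Trem2, 66 before that of F13a1, 180 before that of Selenop, 48 before that of Cd72 and 210 before that of Dusp6.

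A large part of the transcriptome differed between KO and WT Rep1 to Rep5. Of the 10866 tested genes, 5380 were called (49.5%), 2999 higher in KO (27.6%) and 2381 lower (21.9%). A change of at least 1.5-fold was called for 1191 genes, 530 higher (4.88%) and 661 lower (6.08%), and one of at least 2-fold for 158 higher (1.45%) and 330 lower (3.04%). At least 4-fold changes were called for 10 genes higher in KO (0.092%) and 41 lower (0.377%). The values of the groups did not overlap in 3956 genes (36.4%), 2210 with KO above (20.3%) and 1746 with KO below (16.1%). The median log2 fold change of all tested genes was 0.02, with quartiles of -0.16 and 0.19. Which sign prevails among the calls differed by scaling: with libraries rescaled to equal sums, 1898 calls were higher and 3370 lower, 36.0% higher against 55.7% on the deposited scale. With the estimated size of 1 fragment as a covariate, chosen after seeing the depth estimates, 3055 genes were called. The sums themselves ran from 573313 to 602182 FPKQ in WT and from 605492 to 634825 FPKQ in KO, and the 20 most abundant genes held 22.3% to 23.1% of them in WT and 26.9% to 27.9% in KO. A level of 1 FPKQ in 2 kb corresponded to 47.03 to 57.7 fragments in KO and 57.2 to 67.6 in WT. Fragments on genes with a single transcript overlapped between the groups, at 2904011 to 3521989 in KO and 2923122 to 3653483 in WT. The first principal component held 66.5% of the variance and separated the genotypes. Correlations between libraries were 0.990 to 0.995 within WT, 0.987 to 0.995 within KO and 0.955 to 0.973 between them.

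Cell division, sterol, MHC class II and lysosome genes, 473 tested genes in 4 lists, held 243 of the 661 falls of at least 1.5-fold and 24 of the 530 rises. Outside them, 506 genes rose and 418 fell by that much, and these are the subject of what follows. They were sorted into 76 lists by function. Counts of calls in a list are to be read beside all tested genes, of which 27.6% were called higher and 21.9% lower. These counts include any members that a list shares with the 4 set-aside lists. The lists held 233 of the 506 rises and 163 of the 418 falls, while 273 rises and 255 falls belonged to no list.

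**Figure D1:**
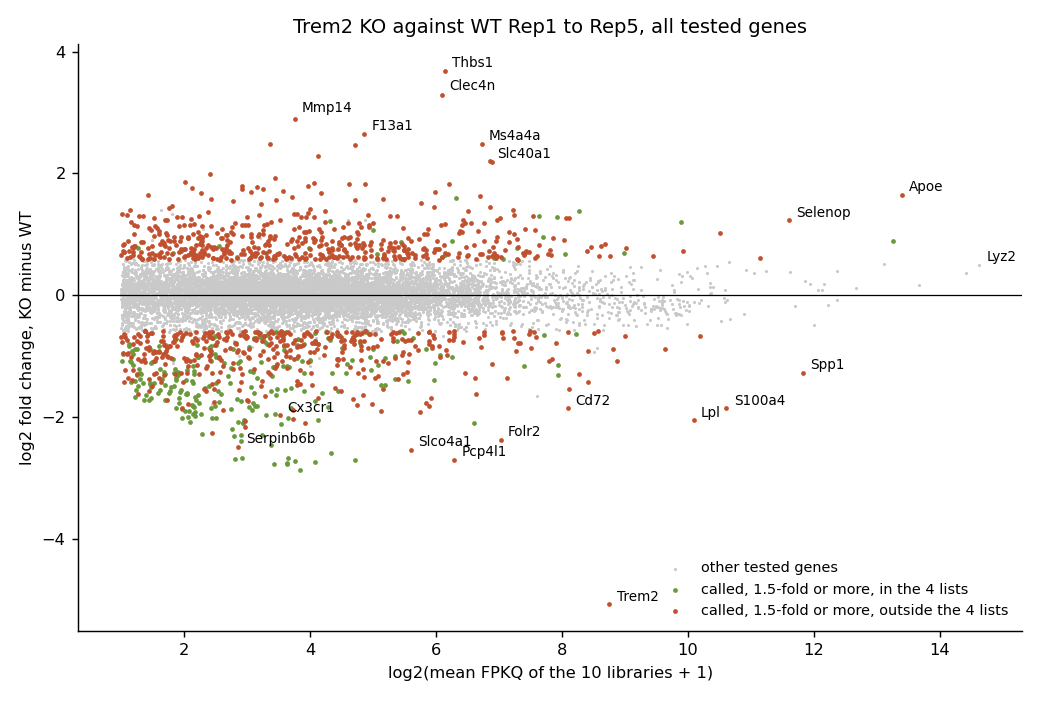
Log2 fold change (KO minus WT) of each of the 10866 tested genes against its mean level over the 10 libraries, log2(FPKQ + 1). Green points are genes of the 4 set-aside lists called with at least 1.5-fold change and orange points are such genes outside them. Most green points lie below 0, while orange points lie on both sides, with 506 above and 418 below.

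The genes that rose most encode surface receptors, matrix enzymes and iron proteins. After Thbs1 (log2 fold change 3.69) and the lectin Clec4n (3.29) came Mmp14, a membrane-anchored protease that cuts collagen and activates other proteases. Mmp14 read 1.501, 2.44, 3.12, 2.34 and 1.66 FPKQ in WT and 17.2, 22.2, 23.9, 24.5 and 26.03 FPKQ in KO. Every KO library was several times above the highest WT library, and the log2 fold change was 2.90 (SE 0.14, limma adjusted p = 1.09e-08). F13a1, the catalytic chain of the transglutaminase that cross-links fibrin, was 8.71, 5.16, 6.74, 7.96 and 6.37 FPKQ in WT and 59.1, 47.8, 50.8, 39.5 and 48.3 FPKQ in KO (log2 fold change 2.66 with SE 0.12 and limma adjusted p = 8.21e-09). Its groups stood far apart, with KO Rep4 the lowest of the KO libraries.

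Several of the other large rises were adhesion and recognition molecules. Vcam1, a ligand of the integrin made by Itga4, was uneven among the KO libraries: 2.00, 1.69, 1.64, 1.38 and 3.63 FPKQ in WT and 10.99, 10.6, 23.0, 22.7 and 15.1 FPKQ in KO. KO Rep3 and Rep4 were the highest, and no KO library overlapped the controls (log2 fold change 2.48, SE 0.24, limma adjusted p = 2.96e-06). Cd4, the co-receptor that T cells share with some macrophages, rose from 6.98 ± 0.870 to 43.5 ± 9.51 FPKQ, a log2 fold change of 2.46. Of 10 markers of T cells 9 had a mean under 1 FPKQ, and their sum was 4.42 to 7.10 FPKQ in WT and 2.498 to 5.08 FPKQ in KO. Lat, the only one tested, fell by 0.65, and the part of T cells in the Cd4 level was not tested. Itgal, the alpha chain of the integrin LFA-1, rose from 3.50 ± 0.621 to 16.2 ± 2.87 FPKQ. Cd86, a co-stimulatory ligand for T cells, rose from 6.27 ± 0.684 to 25.2 ± 3.03 FPKQ, and Cmklr1, a receptor for the chemoattractant chemerin, from 4.95 ± 0.628 to 27.999 ± 1.61 FPKQ.

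Enzymes and other proteins were also among the 20 largest rises. Aoah, which removes acyl chains from bacterial lipopolysaccharide, rose from 28.9 ± 2.65 to 95.9 ± 6.51 FPKQ. Mgll, which splits monoacylglycerols, rose from 5.88 ± 0.540 to 23.5 ± 6.59 FPKQ, with KO Rep3 at 33.2 and KO Rep2 at 17.5. Tbc1d4, a regulator of Rab proteins in glucose transporter traffic, Ier3, an early-response gene, Cnrip1, which binds the cannabinoid receptor, Sorbs3, an adhesion scaffold, and Ednrb, an endothelin receptor, rose by 1.68 to 1.83 on the log2 scale.

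Genes for transport and lipid handling were among the largest falls after Trem2. The steepest of the others was Pcp4l1, which encodes a small protein. Pcp4l1 read 141, 154, 117, 129 and 129 FPKQ in WT and 16.1, 19.8, 18.9, 23.3 and 21.8 FPKQ in KO. All KO libraries lay at a small fraction of any WT library (log2 fold change -2.69, SE 0.10, limma adjusted p = 1.11e-09). Slco4a1, an organic anion transporter, was 73.5, 75.3, 91.7, 86.7 and 81.9 FPKQ in WT and 18.2, 13.8, 8.53, 15.4 and 12.3 FPKQ in KO, with KO Rep3 the lowest. Its log2 fold change was -2.53 (SE 0.15, limma adjusted p = 5.07e-08).

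Folr2, a folate receptor of tissue macrophages, fell from 218 ± 43.6 to 41.5 ± 9.62 FPKQ. P2ry1, a receptor for ADP, fell from 20.4 ± 1.61 to 4.27 ± 0.592 FPKQ and Cx3cr1, the fractalkine receptor, from 17.2 ± 1.03 to 3.66 ± 0.374 FPKQ. The secreted protein Olfm1, the protocadherin Pcdh7, the glutaminyl cyclase Qpct and the neuropeptide gene Npy fell by 1.76 to 1.90 on the log2 scale. Fnbp1l and Myo1e, which bend and pull membranes during uptake, both fell by 1.68. In none of these genes did a KO library reach the lowest WT library.

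**Figure D2:**
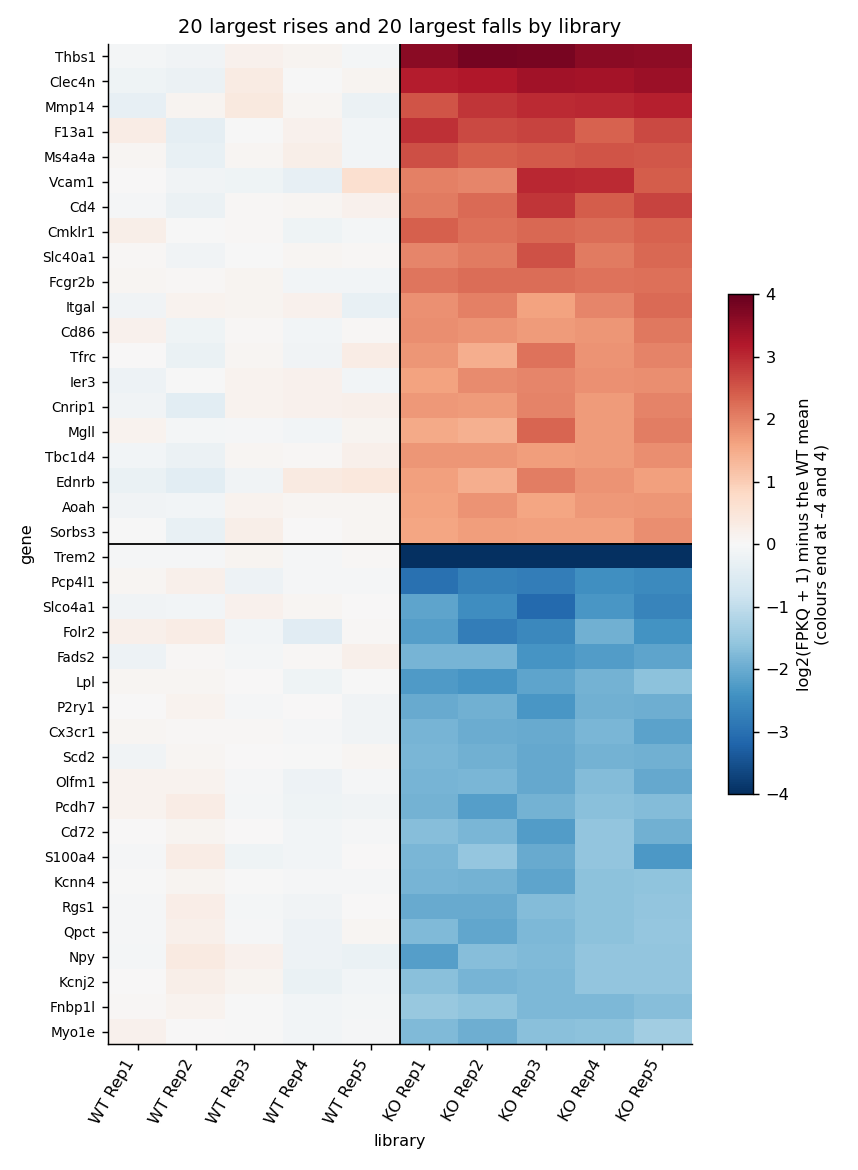
Each row is a gene and each column a library, and the colour is log2(FPKQ + 1) minus the mean of WT Rep1 to Rep5. The 20 largest rises, in red, stand above the line and the 20 largest falls, Trem2 included, in blue below it. WT columns stay near 0, and the KO columns differ from each other mainly in Vcam1, Mgll and Slco4a1.

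Several families of surface receptors held many calls. Of 17 tested C-type lectin genes, which bind sugars and damaged cells, 13 rose and 3 fell, and the median log2 fold change was 0.72 against 0.02 for all genes. Clec4a3 rose from 56.4 ± 1.46 to 129.7 ± 6.73 FPKQ and the related Clec4n from 11.8 ± 2.01 to 123 ± 9.52 FPKQ, while Clec12a, an inhibitory receptor for uric acid crystals, fell from 300.2 ± 16.4 to 143 ± 3.67 FPKQ. Of 7 tested Fc receptor genes 5 rose and 1 fell. Fcgrt, which recycles antibody and albumin, rose from 52.4 ± 5.11 to 121 ± 10.4 FPKQ, and Fcgr3 from 544 ± 26.6 to 850 ± 52.2 FPKQ, alongside the inhibitory Fcgr2b at 2.20 on the log2 scale. Among 8 tested Ms4a genes 6 rose and 0 fell, the 2 others not being called. Ms4a4a rose from 31.3 ± 4.51 to 178 ± 9.51 FPKQ and Ms4a7 from 296 ± 10.3 to 529 ± 36.6 FPKQ. These families hold near-identical copies, between which the authors' counting may have divided fragments.

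Cd72, which carries inhibitory motifs and is abundant in these cells, fell. It read 432, 454, 434, 392 and 414 FPKQ in WT and 129.8, 118, 89.3, 141 and 112 FPKQ in KO, a log2 fold change of -1.85 (SE 0.10, limma adjusted p = 2.38e-08). Over the 30 tested inhibitory receptor genes, 18 rose and 7 fell, with Cd300a, a receptor for lipids of dying cells, rising from 83.9 ± 3.47 to 164 ± 6.74 FPKQ. Cytokine and growth factor receptors moved in the same direction more often than not, 28 of 50 rising and 10 falling. Il4ra, a chain of the IL-4 and IL-13 receptors, rose from 16.9 ± 1.255 to 35.1 ± 1.26 FPKQ and its partner Il13ra1 from 5.05 ± 0.227 to 11.1 ± 0.851 FPKQ. Tnfrsf14 was the most even, at 15.9, 15.5, 15.6, 15.8 and 15.96 FPKQ in WT and 32.9, 31.6, 32.0, 31.0 and 30.9 FPKQ in KO. Of 16 tested genes listed with semaphorins, plexins and ephrins, guidance cues that also act between immune cells, 10 rose and 3 fell. Sema4b rose from 2.51 ± 0.610 to 9.13 ± 0.670 FPKQ and the receptor Plxnd1 from 69.7 ± 2.60 to 109 ± 4.41 FPKQ. That list was gathered by name and also holds Unc50, which is no guidance gene.

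Receptors for soluble signals were mixed. Among 13 tested chemoattractant receptor genes 5 rose and 6 fell, Cmklr1 and Cx3cr1 being the extremes. Of 35 tested Toll-like and other pattern receptor genes 19 rose and 8 fell, or 13 and 10 with equal sums. Cd14, the co-receptor for lipopolysaccharide, fell from 637 ± 9.89 to 301 ± 20.6 FPKQ, and the peptidoglycan sensor Nod1 rose from 5.32 ± 0.681 to 11.7 ± 1.201 FPKQ. Of 22 tested scavenger and dead cell receptor genes 8 rose and 8 fell, or 4 and 8 with equal sums. Mertk, which recognises dead cells through its ligand Gas6, rose from 16.8 ± 1.56 to 52.3 ± 3.66 FPKQ, and Gas6 itself from 287 ± 35.2 to 498 ± 13.3 FPKQ. Of the 50 other tested G-protein receptor genes 22 rose and 10 fell. Gpr162 and Adgre5 rose by 1.23 and 1.15.

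**Figure D3:**
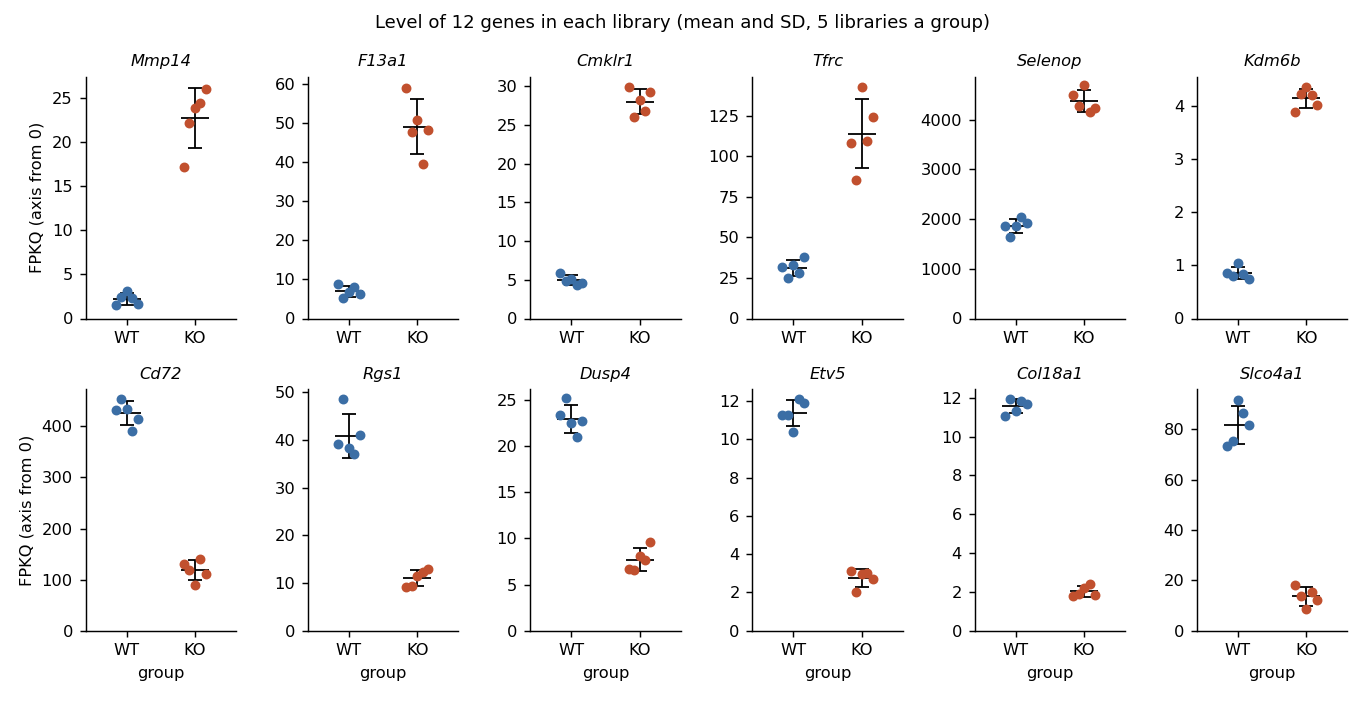
Level in FPKQ, on axes that start at 0, of 12 genes in WT Rep1 to Rep5 (blue) and KO Rep1 to Rep5 (orange), with the mean and SD of each group. The upper row shows rises and the lower row falls, and in none of the 12 do the groups overlap.

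Most RGS genes fell. RGS proteins shorten signals of G-protein receptors, and of 9 tested RGS genes 7 fell and 0 rose, the median log2 fold change being -0.69. Rgs1 read 39.2, 48.6, 38.4, 36.9 and 41.1 FPKQ in WT and 9.25, 9.35, 11.4, 12.2 and 12.9 FPKQ in KO. The groups lay far apart, and the log2 fold change was -1.80 (SE 0.10, limma adjusted p = 2.52e-08). Rgs2 fell from 141 ± 6.83 to 54.5 ± 4.08 FPKQ and Rgs18 from 33.5 ± 2.46 to 14.3 ± 1.04 FPKQ.

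Several MAP kinase phosphatases and Sprouty proteins shut off the Ras and Erk cascade and are themselves induced by it. The Dusp genes of this list were gathered by name, and not all of them act on Erk. Of 21 genes tested, 10 fell and 2 rose, and 9 were not called. Activity of the cascade was not measured. The fall was concentrated in a few: Dusp4 was 23.4, 25.2, 22.5, 21.02 and 22.7 FPKQ in WT and 6.69, 6.54, 8.12, 7.63 and 9.61 FPKQ in KO, a log2 fold change of -1.47 (SE 0.09, limma adjusted p = 5.27e-08). Spred1 fell from 47.4 ± 2.09 to 18.4 ± 1.70 FPKQ and Dusp6 from 20.4 ± 1.53 to 9.01 ± 0.593 FPKQ. Spry2 and Spred2, named after their values were seen, fell by 1.30 and 1.05. Etv5, an ETS factor known as a target of the same cascade, read 11.2, 11.3, 10.4, 12.1 and 11.9 FPKQ in WT and 3.14, 2.01, 2.95, 2.995 and 2.71 FPKQ in KO. The groups lay far apart. Among 20 tested AP-1, Egr and Nr4a genes, the immediate early transcription factors, 11 fell and 2 rose. Fos fell from 45.8 ± 3.26 to 17.4 ± 2.28 FPKQ and Atf3, the most abundant of the named ones, from 215 FPKQ to 138 FPKQ, whereas Ier3 rose from 9.82 ± 1.12 to 37.4 ± 3.21 FPKQ.

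Genes of the Trem2 route itself were called about as often as all genes. Of 38 tested partners and kinases 14 rose and 7 fell (55.3% called, against 49.5%), and the median log2 fold change of 0.02 became -0.06 on the equal-sum scale. The adaptor Tyrobp and the lipase Plcg2, named after their values were seen, had log2 fold changes of 0.04 and 0.07 and were not called. The kinase Syk rose from 93.8 ± 2.99 to 150 ± 5.39 FPKQ and Lyn, a Src family kinase upstream of it, from 78.7 ± 2.67 to 119 ± 4.96 FPKQ. Rasgrp3, which loads Ras in response to diacylglycerol, fell from 52.3 ± 2.43 to 17.5 ± 1.76 FPKQ. Of 29 tested cyclic nucleotide genes 10 rose and 3 fell (44.8% called, against 49.5% of all genes), and Pde4b, which degrades cyclic AMP, rose from 3.66 ± 0.340 to 10.4 ± 0.996 FPKQ. Among 31 NF-kB factors and feedback genes 13 rose and 6 fell, and their median of 0.05 turned to -0.03 against WT Rep6 to Rep10. Tnip3, an inhibitor of NF-kB signals, fell from 42.2 ± 3.86 to 12.99 ± 1.44 FPKQ.

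Transcription factors and chromatin enzymes showed a few large changes. Rxra, the common partner of lipid-sensing nuclear receptors, read 12.2, 9.72, 12.3, 13.6 and 13.8 FPKQ in WT and 42.7, 33.6, 38.0, 37.1 and 40.0 FPKQ in KO. The groups lay far apart, and the log2 fold change was 1.56 (SE 0.09, limma adjusted p = 3.29e-08). Of 20 tested nuclear receptor genes 11 rose and 3 fell, Rara and Esr1 among the rises at 0.54 and 0.65. Pparg, named after its values were seen, fell from 39.5 ± 3.88 to 26.7 ± 4.07 FPKQ. Of 53 tested macrophage transcription factors 26 rose and 11 fell, or 17 and 15 with equal sums. Bcl6, a repressor of inflammatory genes, fell from 43.9 ± 1.56 to 20.3 ± 1.05 FPKQ, and Myc from 9.87 ± 1.07 to 3.09 ± 0.448 FPKQ.

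Kdm6b, which removes methyl groups from a lysine of histone H3, was 0.863, 0.801, 1.04, 0.836 and 0.735 FPKQ in WT and 3.89, 4.22, 4.36, 4.21 and 4.02 FPKQ in KO. Its WT level is near the minimum, so the log2 fold change of 1.47 understates the change in mean level, which was 484% of WT. Dot1l, which methylates another lysine of that histone, fell from 21.7 ± 1.10 to 8.49 ± 1.18 FPKQ and Hdac9 from 4.79 ± 0.713 to 1.14 ± 0.128 FPKQ. Among 102 tested chromatin enzyme genes 35 rose and 13 fell, 47.1% called against 49.5% of all genes. Their median of 0.07 turned just below 0 with equal sums, where 20 rose and 22 fell. Clock genes moved one way with small sizes: 13 of 17 rose and 0 fell, with a median of 0.31, and Dbp, a transcription factor driven by the clock, rose from 10.9 ± 0.896 to 19.1 ± 1.18 FPKQ. Csnk1e and Tef rose by 0.43 and 0.37. Of 283 tested zinc finger genes of the Zfp series 66 rose and 21 fell, against 49.5% called among all genes, and with equal sums 38 rose and 38 fell.

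Secreted products included both inflammatory and repair proteins. Among 19 tested chemokine genes 7 rose and 6 fell. Ccl8 read 0.936, 0.869, 1.18, 0.821 and 1.01 FPKQ in WT and 8.202, 4.89, 4.16, 5.83 and 5.69 FPKQ in KO, and Ccl24, which attracts eosinophils, was 0.268 ± 0.132 FPKQ in WT and 3.10 ± 1.21 FPKQ in KO. Both are low in all libraries, and both rose. Ccl9, an abundant chemokine, fell from 439 ± 36.4 to 286 ± 7.08 FPKQ. The monocyte attractant Ccl2 and the related Ccl4, named after their values were seen, fell by 1.21 and 1.10. Of 35 tested cytokine and growth factor genes 16 rose and 9 fell. Tnf fell from 16.2 ± 1.56 to 6.57 ± 0.637 FPKQ, Metrnl from 186 ± 8.67 to 115 ± 4.03 FPKQ, and Spp1, osteopontin, from 5137 ± 432 to 2129.7 ± 90.8 FPKQ.

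Matrix proteins and the enzymes that cut them did not move as a block. Of 19 tested metalloproteinase and inhibitor genes 12 rose and 2 fell, Mmp27 rising from 2.38 ± 0.347 to 10.8 ± 1.11 FPKQ and the sheddase Adam8 falling from 308 ± 8.65 to 149 ± 12.8 FPKQ. Col18a1, the collagen that yields endostatin, was 11.1, 11.9, 11.3, 11.8 and 11.7 FPKQ in WT and 1.81, 1.87, 2.22, 2.43 and 1.85 FPKQ in KO. Both groups were narrow and far apart (log2 fold change -2.05 with SE 0.06 and limma adjusted p = 6.88e-10). The cross-linking enzyme Tgm2 rose from 49.6 ± 4.09 to 131 ± 8.25 FPKQ, in the same direction as F13a1. In the coagulation list, 6 of 14 genes rose and 4 fell, and its median of 0.04 became -0.10 against WT Rep6 to Rep10. Plau, the urokinase that starts the lysis of fibrin, read 136, 156, 142, 146 and 165 FPKQ in WT and 40.9, 41.1, 46.6, 50.7 and 62.9 FPKQ in KO (log2 fold change -1.62 with SE 0.10 and limma adjusted p = 1.07e-07). The serpin Serpinb6b was the steepest fall among protease inhibitors, from 11.3 ± 1.67 to 1.21 ± 0.283 FPKQ, a log2 fold change of -2.48.

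Iron genes rose on both the uptake and the export side. The transferrin receptor Tfrc was 31.5, 25.3, 32.9, 28.01 and 37.9 FPKQ in WT and 108, 85.4, 143, 109 and 124 FPKQ in KO. Slc40a1, ferroportin, the exporter of iron, was 41.3, 36.6, 39.4, 42.2 and 41.7 FPKQ in WT and 160.1, 172, 242, 174 and 201 FPKQ in KO. KO Rep3 was the highest library for both, and neither pair of groups overlapped (log2 fold changes 1.83 and 2.20, limma adjusted p = 2.61e-07 and 5.23e-09). Trf, transferrin itself, rose from 156 ± 12.1 to 376 ± 24.5 FPKQ. Of 32 tested iron and heme genes 17 rose and 4 fell. Antioxidant genes rose about as often, 22 of 40 rising and 9 falling. Cat, catalase, was 160.3, 152, 163, 168 and 167 FPKQ in WT and 386, 369, 421, 376 and 407 FPKQ in KO. Gsr, glutathione reductase, rose from 23.7 ± 0.704 to 45.4 ± 4.79 FPKQ and Osgin1 from 7.83 ± 0.305 to 20.6 ± 2.26 FPKQ.

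Channels and transporters carried some of the steepest falls. Kcnn4, a potassium channel opened by calcium, was 90.9, 98.7, 89.6, 89.0 and 89.1 FPKQ in WT and 24.3, 24.1, 20.3, 28.8 and 29.6 FPKQ in KO. Kcnj2, an inward rectifier that sets the resting potential, fell from 38.5 ± 5.33 to 11.1 ± 1.06 FPKQ. The 49 tested channel genes as a whole leaned the other way, 25 rising and 10 falling, or 20 and 13 with equal sums. Of 174 tested solute carriers 70 rose and 40 fell (63.2% called, against 49.5% of all genes), or 52 and 50 with equal sums. Slc9a9, a proton exchanger of endosomes, and Slc7a7, a carrier of basic amino acids, rose by 1.44 and 1.38. Abca1, which exports cholesterol, and Abca9 rose by 0.94 and 0.90. Of 25 tested ABC transporters 12 rose and 4 fell (64.0% called), or 9 and 7 with equal sums.

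Metabolic genes fell in biosynthesis and glycolysis and, on the deposited scale, were mostly without a call in the mitochondrion. Of 24 tested genes of fatty acid synthesis and desaturation 15 fell and 2 rose. Fads2, the first desaturase of polyunsaturated fatty acids, fell from 23.5 ± 2.61 to 4.77 ± 0.898 FPKQ, and the stearoyl desaturases Scd1 and Scd2 by 1.87 and 1.92. Lpl, which frees fatty acids from lipoproteins, fell from 1758 ± 118 to 429.9 ± 88.6 FPKQ, while Fabp5, which carries them inside the cell, rose from 963 ± 109 to 1966 ± 182 FPKQ and Apoe by 1.65.

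Among 22 genes of serine, one-carbon and amino acid response, 12 fell and 4 rose. Phgdh, the first enzyme of serine synthesis, was 5.47, 6.70, 6.91, 9.66 and 7.41 FPKQ in WT and 1.98, 2.22, 1.53, 2.19 and 1.22 FPKQ in KO. No library overlapped, although WT Rep4 stood above the other controls, and the log2 fold change was -1.54 (SE 0.14, limma adjusted p = 1.7e-06). Psat1, the next enzyme, fell by 1.04 and Mthfd2, of mitochondrial folate metabolism, by 1.16. Of 26 glycolysis genes 16 fell and 5 rose, with a median of -0.28. Pkm fell from 966 ± 24.2 to 668 ± 41.4 FPKQ and Aldoc by 0.60, whereas Pfkfb3, which makes the activator of phosphofructokinase, rose from 12.3 ± 1.08 to 27.3 ± 1.43 FPKQ. Of 80 respiratory chain and ATP synthase genes 11 fell, 1 rose and 68 were not called, while with equal sums 30 fell and 0 rose. The 33 citrate cycle genes split evenly on the deposited scale, 7 rising and 7 falling (42.4% called, against 49.5% of all genes). With equal sums 4 rose and 14 fell, and against WT Rep6 to Rep10 7 rose and 10 fell. Among 27 genes of fatty acid oxidation 11 rose and 2 fell (48.1% called), with a median of 0.04 that became -0.05 with equal sums, Cpt1a and Acox3 both rising by 0.49.

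Counts for the machinery of RNA and protein synthesis are given with the share called, which was 49.5% over all genes. Of 83 tested cytosolic ribosomal protein genes 34 fell and 0 rose (40.96% called), with a median of -0.19. Rpl18 fell from 576 ± 21.4 to 479 ± 27.6 FPKQ. By library, the median of this list against the WT mean ran from -0.06 in KO Rep2 to -0.49 in KO Rep5, and WT Rep7 stood at -0.30. Against WT Rep6 to Rep10, 12 fell and 1 rose. Of 79 mitochondrial ribosomal protein genes 27 fell and 3 rose (37.97% called), and of 69 translation factor genes 18 fell and 10 rose (40.6%). Of 49 genes listed with the proteasome 20 fell and 3 rose (46.9%), and of 66 splicing genes 29 fell and 8 rose (56.1%). The largest fall of the proteasome list was Psmc3ip, which despite its name acts in meiotic recombination. Chaperones depended on the control set: 18 rose and 18 fell of 48, with a median of 0.04, but 6 rose and 30 fell against WT Rep6 to Rep10, with a median of -0.22. Ahsa1, which activates the chaperone Hsp90, fell from 200 ± 10.7 to 106 ± 9.61 FPKQ. Of 43 autophagy genes 26 rose and 4 fell, or 15 and 9 with equal sums. Gabarapl1 rose from 91.5 ± 5.93 to 129 ± 7.43 FPKQ.

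The cytoskeleton fell more than it rose. Of 20 tested tubulin, septin and intermediate filament genes 15 fell and 2 rose, with a median of -0.37. Tuba1a fell from 57.4 ± 5.52 to 21.7 ± 2.83 FPKQ and Tubb5 from 231 ± 17.3 to 103 ± 9.25 FPKQ. Several tubulins rise in dividing cells. Tuba1a, Tubb5 and some other tubulins are also members of the cell division list, in which 296 of 349 tested genes fell. The part of cell division in the tubulin values was not tested. Of 67 actin genes 32 fell and 13 rose, Gsn, gelsolin, falling from 304 ± 10.0 to 176 ± 6.41 FPKQ. Of 22 annexin, S100 and galectin genes 14 fell and 4 rose. S100a4, a calcium-binding protein tied to motility, read 2369, 2977, 2169.6, 2262 and 2458 FPKQ in WT and 687, 838, 596, 816 and 490.3 FPKQ in KO. Its log2 fold change was -1.85 (SE 0.14, limma adjusted p = 3.95e-07). S100a6 fell by 1.42. In the Bcl2 and death list 12 of 39 rose and 11 fell (59.0% called, against 49.5% of all genes). Bcl2l1, which protects from apoptosis, fell from 61.8 ± 1.59 to 31.4 ± 1.64 FPKQ.

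**Figure D4:**
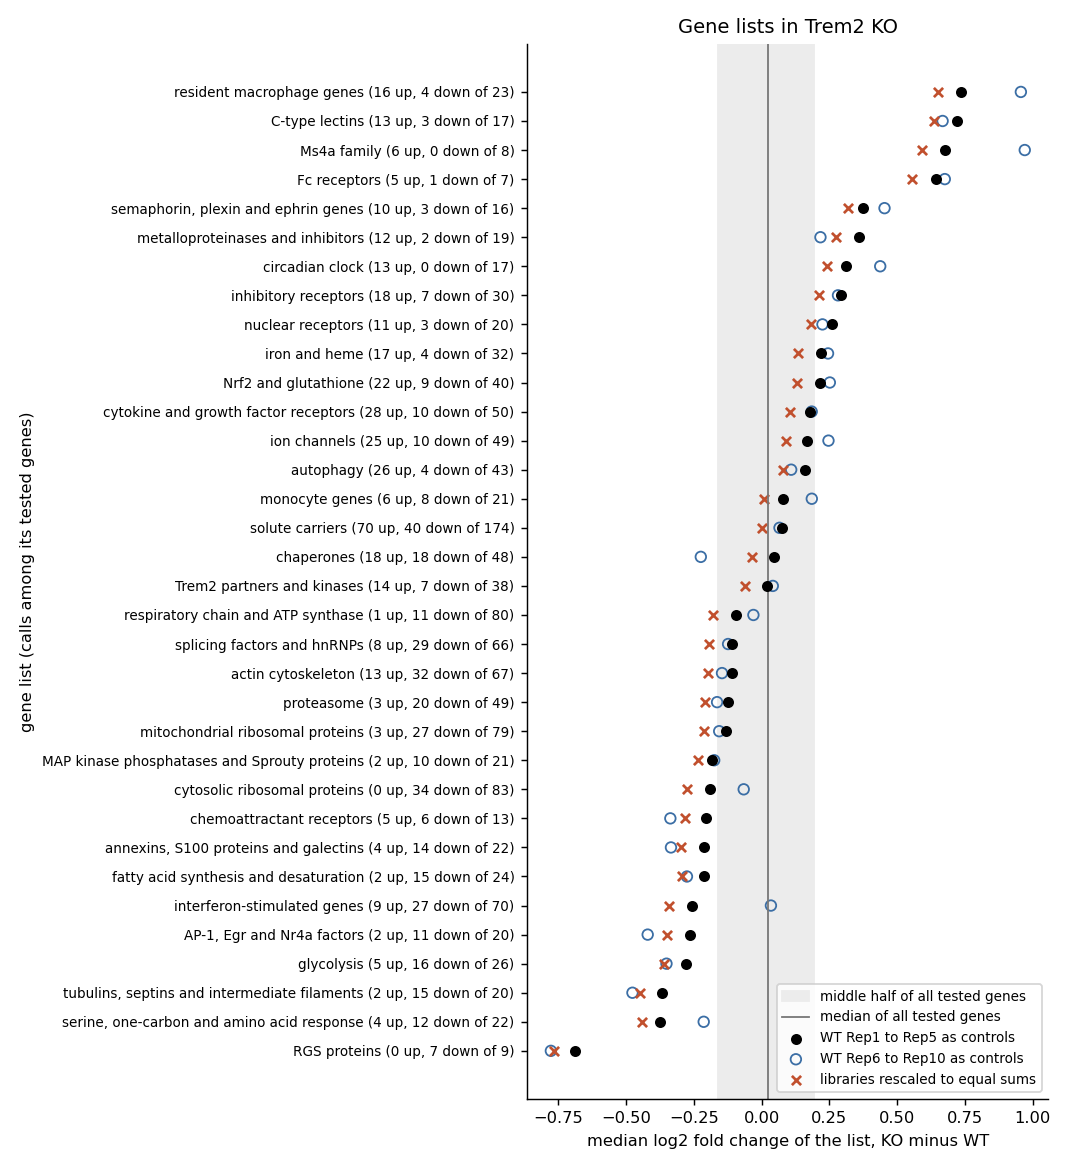
Median log2 fold change (KO minus WT) of 34 gene lists, with the number of genes called higher and lower of those tested in the labels. Filled points use WT Rep1 to Rep5, open circles WT Rep6 to Rep10 and crosses libraries rescaled to equal sums, and the grey band spans the quartiles of all tested genes. The resident macrophage, C-type lectin and Ms4a lists lie to the right and the RGS list furthest left, while the interferon and chaperone lists change side with the control set.

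Interferon-stimulated genes were the clearest case of a result that depends on the controls. Against WT Rep1 to Rep5, 27 of 70 fell and 9 rose, with a median of -0.26. Against WT Rep6 to Rep10, 10 fell and 11 rose, with a median of 0.03. The KO libraries also differed among themselves: the median of the list relative to the mean of WT Rep1 to Rep5 was 0.11, -0.12, -0.74, -0.05 and -0.43 in KO Rep1 to Rep5. Those of WT Rep6 to Rep10 were -0.09, -0.35, -0.21, -0.51 and -0.11. KO Rep3 and Rep5 and WT Rep9 were the lowest, and the other KO libraries lay within or near the range of the first controls. Isg15, named after its values were seen, read 64.9, 51.5, 26.6, 52.7 and 28.4 FPKQ in KO and 58.0, 81.1, 72.7, 80.1 and 68.1 FPKQ in WT, and the groups overlapped.

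Single members of that list are given by library. Ifi27l2a was 418, 438, 391, 388 and 389 FPKQ in WT and 189, 181, 85.6, 189 and 93.9 FPKQ in KO, below every one of these controls, with Rep3 and Rep5 the lowest (log2 fold change -1.53 with SE 0.21 and limma adjusted p = 8.74e-05). The related Ifi27 rose from 44.2 ± 2.39 to 63.1 ± 7.83 FPKQ. The guanylate-binding protein gene Gbp7 was 3.51, 3.90, 3.65, 5.15 and 4.10 FPKQ in WT and 11.5, 9.86, 6.38, 9.05 and 8.15 FPKQ in KO, with no overlap.

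**Figure D5:**
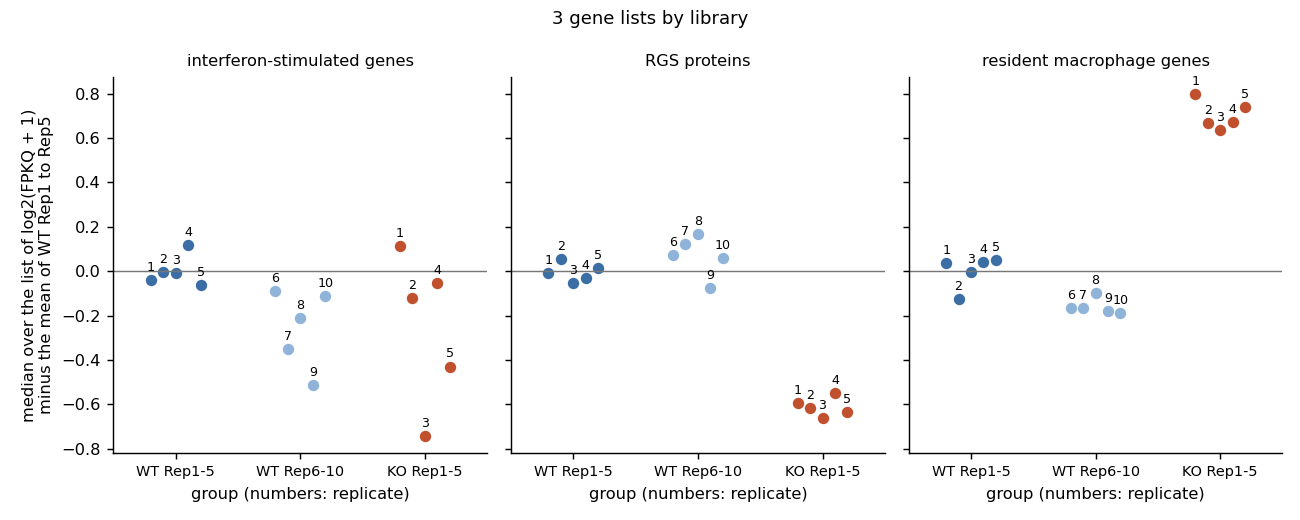
Median over a list of log2(FPKQ + 1) minus the mean of WT Rep1 to Rep5, for each library of both control sets and of KO, with replicate numbers beside the points. The interferon list spreads within groups, from 0.11 to -0.74 among the KO libraries. The RGS list is at -0.55 to -0.66 and the resident macrophage list at 0.64 to 0.80 in KO, apart from both control sets.

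Genes typical of tissue-resident macrophages were mostly higher. Of 23 tested 16 rose and 4 fell, with a median of 0.74. The list holds F13a1 and Slc40a1, already described, and Selenop, a secreted carrier of selenium. Selenop read 1853, 1639.9, 1852, 2038 and 1928 FPKQ in WT and 4502, 4276, 4700.2, 4159 and 4228 FPKQ in KO. The lowest KO library was well above the highest control. Folr2, on the same list, fell, as described above, and so did Cd5l, by 0.70, named after its values were seen. Of 21 tested monocyte genes 6 rose and 8 fell, Thbs1 and S100a4 being the extremes. Several of these genes are also counted in other lists.

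Macrophage markers were abundant in every library, and some markers of other cells were also read at moderate levels. The B-cell marker Ighm was at 76.0 ± 5.08 FPKQ in WT and 67.9 ± 10.3 FPKQ in KO, the neutrophil marker S100a9 at 34.8 ± 7.81 and 33.9 ± 5.92 FPKQ, and the megakaryocyte marker Pf4 at 16.2 ± 1.27 and 19.6 ± 4.85 FPKQ, and none of these was called. The genes named here come from the cell type marker lists. All 12 macrophage markers were detected, summing to 28651 to 30667 FPKQ in WT and 37699 to 40224 FPKQ in KO, and Lyz2, Csf1r and Adgre1 rose while Cd14, Fcgr1, Itgam and Spi1 fell. Markers of NK cells and stroma were under a mean of 1 FPKQ without exception. Neutrophil markers summed to 45.4 to 79.3 FPKQ in WT and 47.9 to 81.1 FPKQ in KO, and of these only Mmp8 was called, higher at 4.26 ± 0.449 FPKQ against 1.17 ± 0.294 FPKQ. Igkc, an immunoglobulin light chain of B-lineage cells, was 1.54, 1.78, 1.70, 0.197 and 1.23 FPKQ in WT and 9.64, 4.30, 7.59, 6.09 and 4.13 FPKQ in KO. The B-cell sum as a whole overlapped between groups, at 74.7 to 86.5 FPKQ in WT and 63.4 to 89.8 FPKQ in KO. The sum of progenitor markers was lower, at 8.66 to 10.2 FPKQ in WT and 4.47 to 6.34 FPKQ in KO. Of its members, Sox4 fell from 2.93 ± 0.575 to 0.502 ± 0.117 FPKQ and Kit from 4.89 ± 0.240 to 3.13 ± 0.598 FPKQ. Meis1, the other one tested, was not called, at 1.04 FPKQ in WT and 1.02 FPKQ in KO. The remaining 6 had a mean under 1 FPKQ and differed in both directions. The sums of erythroid, megakaryocyte and stromal markers were low but higher in KO, at 2.28 to 2.68 against 0.696 to 1.39 FPKQ, 20.3 to 35.3 against 17.2 to 19.7 FPKQ and 1.14 to 2.35 against 0.576 to 0.854 FPKQ. Endothelial markers summed to 23.9 to 27.1 FPKQ in WT and 26.5 to 33.8 FPKQ in KO, and both tested ones, Kdr and Vwf, rose, by 0.33 and 0.19. The dendritic cell marker Batf3 fell by 0.55, while Siglech, the other one tested, was not called, at 1.14 FPKQ in WT and 1.45 FPKQ in KO. The sum of the 10 dendritic cell markers overlapped between groups, at 4.69 to 7.05 FPKQ in WT and 5.44 to 6.95 FPKQ in KO. The platelet chemokine gene Ppbp rose by 1.14 and the erythropoietin receptor gene Epor by 0.80. In bulk RNA, fewer cells of a type and less RNA per cell cannot be told apart, and the part of such cells in the other results was not tested.

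Sex is not among the labels used here. Y-linked transcripts such as Ddx3y were present in WT Rep4, WT Rep5 and KO Rep1 and near 0 in the other libraries, which carried Xist instead. With Ddx3y as a covariate, chosen after seeing these values, 5211 genes were called against 5380.

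The most abundant transcripts also shifted. Of the 30 most abundant genes 20 were called with at least 1.2-fold change, 14 higher and 6 lower. Apoe rose from 5238 ± 507 to 16357 ± 676 FPKQ and Lyz2, lysozyme, from 20955 ± 683 to 29652 ± 964 FPKQ. The call of Lyz2 was lost under quantile normalization and with no filter on low values (limma adjusted p = 0.402 in the latter). Quantile normalization gives the top gene of every library the same value. Lyz2, the most abundant gene, could therefore keep no call there. The galectin gene Lgals3 fell by 0.49 and the actin genes Actb and Actg1 by 0.31 and 0.42. Itm2b and Lamp1 rose by 0.62 and 0.55. At the other end, 6 genes had a mean under 0.5 FPKQ in WT and at least 2 FPKQ in KO: Ccl24, Cd55, Chp2, Ccdc148, Epb41l3 and Gsta3. Cd55, which protects cells from complement, was 0.243, 0.152, 0.119, 0.179 and 0.340 FPKQ in WT and 1.51, 2.38, 1.93, 2.25 and 2.93 FPKQ in KO. The reverse held for 26 genes, and of the 10 with the largest falls most belong to cell division, such as Kif4, Troap and Cenpf. Serpinb1c, a protease inhibitor, was the one among them outside that function, at 3.05 ± 0.638 FPKQ in WT and 0.366 ± 0.202 FPKQ in KO.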

How the data were processed

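RNA from 5 KO and 5 WT cultures was made into strand-specific poly-A libraries, per the labels' protocols. The submitters' processing notes name RSEM and GRCm38, with no versions. The authors deposited a table per library with FPKM-type values called FPKQ, a unit for which no definition was found in the labels. Of 51456 symbols, 89.0% matched GENCODE M21. Genes averaging 1 FPKQ or more across the 10 libraries were tested on log2(FPKQ + 1) with limma 3.58.1 in R 4.3.3 (lmFit, eBayes with a trend), two-sided, with Benjamini-Hochberg adjustment over all 10866 genes. Low values were whole multiples of 1 fragment for 84.4% to 90.0% of those looked at (tolerance 0.1 fragment). Members and lists were chosen with earlier results of these data known.

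Named genes were Trem2 and its neighbours, the 20 largest rises and falls among called genes at or above the median level without overlap, near-absent genes, abundant genes called with at least 1.2-fold change, and, per list, the 3 called members lowest in adjusted p. The ranking of rises and falls left out genes of the 4 set-aside lists, gene models without an assigned name, Xist and Y-linked genes. Others are said to be chosen after their values were seen. The fit was also run on simulated data of 10866 genes, with 50 genes changed at each of 1.25-fold, 1.5-fold, 2-fold and 4-fold. It recovered 74%, 92%, 100% and 98% of these, with 11 false calls. In the real libraries 49.5% of the genes were called, and the median SD of log2 values was 0.091 in WT and 0.112 in KO. The rate of false calls among the real genes was not tested.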

Additional observations from a re-analysis of the deposited data

Results flagged for a closer look

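In 176 genes named above, each group of 5 libraries was searched for a library whose gap to the nearest other was a large share of the group's range (Dixon's test). This gave 14 values in 352 groups. Chance flags about 1 in 20 groups. WT Rep2 stood apart in 5 of them: Tyrobp at 1456 FPKQ against 1248 to 1281 in the other controls, Rgs2 at 152.5 against 135.5 to 139.5, Kcnn4 at 98.7 against 89.0 to 90.9, Scd1 at 10.4 against 7.98 to 8.34, and Slc9a9 at 28.4 against 33.0 to 34.3. Among the other controls, Vcam1 was high in WT Rep5 at 3.63 FPKQ, Pde4b low in WT Rep1 at 3.06 FPKQ and Hdac9 low in WT Rep3 at 3.56 FPKQ. In KO, Itga4 was low in Rep4 at 30.3 FPKQ, P2ry1 low in Rep3 at 3.24 FPKQ and Trf low in Rep2 at 333.7 FPKQ, while Gabarapl1 and Pf4 were high in Rep3 at 141.6 and 28.1 FPKQ and Actb was high in Rep5 at 1999 FPKQ. No cause was tested.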

How the results depend on the processing

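Of 262 named genes with a call, 18 lost it or changed sign in at least 1 of 25 other settings. Ctsd and Calr were the 2 among these 18 that changed sign. None of the 262 did either when a library was left out. Ctsd fell by 0.35 under quantile normalization, which sets each value by the gene's rank in its library. Ctsd ranked above Psap and Apoe in every WT library and below both in every KO library. Calr was at -0.025 against WT Rep6 to Rep10, and the cause of that was not tested. The count at 1.5-fold was 787 with a minimum mean of 5 FPKQ, where fewer genes were tested. The share of calls higher in KO was 36.0% with equal sums. The count of called genes was 3055 with fragment size as a covariate, chosen after seeing the data. Leaving out 1 library gave 4833 to 5239 called genes, 1161 to 1223 at 1.5-fold and 54.7% to 56.6% higher. With WT Rep6 to Rep10 as controls 5914 genes were called, 4453 of them shared, and 1595 reached 1.5-fold. The labels share replicate numbers, but same-numbered libraries did not deviate together (correlations -0.15, 0.21, -0.02, -0.05 and -0.13). With the replicate number as a block, 5015 genes were called, 1193 at 1.5-fold and 55.3% higher. FPKQ keeps no stated depth, so no counting intervals are given.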
